A study of Rattus norvegicus with 12 samples.

Results

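Genes of the Hsp70, Hsp90, DnaJ and chaperonin families were followed in rat PC12 cells after oxygen-glucose deprivation and reoxygenation (OGD/R). Members were the genes of the count table whose symbol begins with Hspa, Hsp90, Hspd, Hspe, Hsph, Dnaja, Dnajb or Dnajc and a number, or is one of the Cct2 to Cct8 chaperonin subunits. Names marked -ps, for pseudogenes, were left out. The rule found 73 of 30454 genes, and 64 of them had enough counts to be tested, among 13692 genes tested in all. From textbook knowledge, 48 members (39 tested) were assigned to the cytosol, here taken with the nucleus, the ribosome and vesicle surfaces. A further 13 (13 tested) were assigned to the endoplasmic reticulum and 8 (8 tested) to the mitochondrion, while 4 (4 tested) were assigned to no compartment.

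The study sequenced messenger RNA from 12 libraries in 3 groups of 4, all from cells that had undergone OGD/R. The group OGDR had no further treatment. The group MSCs had also received mesenchymal stem cells, and the group rTMS-MSCs had received mesenchymal stem cells together with repetitive transcranial magnetic stimulation at 10 Hz. The time point was 48 h after treatment, and cells without deprivation were not analysed here. No label names separate cultures for the replicates, so the p-values here rest on the spread among libraries, which may be technical. The sources used here give neither the donor species of the stem cells nor the mode of their addition.

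Hsp70 proteins bind exposed hydrophobic stretches of unfolded proteins in a cycle driven by ATP. J-domain proteins of the DnaJ family deliver substrates and start ATP hydrolysis, while Hsp110 proteins exchange the nucleotide and restart the cycle. Hsp90 acts later, on clients such as kinases and steroid receptors, and the chaperonins CCT in the cytosol and Hsp60 with Hsp10 in the mitochondrion enclose substrates in a barrel. In the cytosol many of these genes are driven by heat shock factors, in the endoplasmic reticulum by the unfolded protein response.

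Each library held 18246250 to 20471838 counts in genes. PC12 is a rat adrenal pheochromocytoma line of chromaffin type, and the chromaffin marker Ddc had no count in any library, while the means of Th, Dbh and Chga were under 1 CPM (a count scaled to library size and composition) in each group. Other chromaffin markers were present: Scg2 had means of 293, 203 and 207 CPM in OGDR, MSCs and rTMS-MSCs, Slc18a2 had 9.35, 10.1 and 10.5 CPM, and Pcsk2 had 3.30, 4.34 and 6.78 CPM. The glial transcription factor Sox10 had means of 362 CPM in OGDR, 424 CPM in MSCs and 404 CPM in rTMS-MSCs, and the glial calcium-binding protein S100b 241, 243 and 289 CPM. On the second principal component of all tested genes, MSCs 3 (-30.8) and rTMS-MSCs 3 (32.4) lay farthest apart.

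In MSCs against OGDR, 14 of 64 tested members passed the threshold (edgeR quasi-likelihood test, Benjamini-Hochberg adjusted p under 0.05 over all tested genes), 12 lower and 2 higher. That is 21.9% of members beside 20.2% of all genes. For lower calls it is 18.8% beside 8.63%, and for higher calls 3.12% beside 11.6%. The median log2 fold change was -0.093 over the members and -0.0021 over all tested genes. In 24 of the 64 members the 4 libraries of one group did not overlap the 4 of the other. This holds for 3376 of 13692 genes, or 24.7%. In these bulk samples, fewer cells of a type and less RNA per cell cannot be told apart.

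In rTMS-MSCs against MSCs, 6 members passed, 4 higher and 2 lower, which is 9.38% of members beside 18.1% of all genes. Higher calls made up 6.25% of members and 7.14% of all genes, and lower calls 3.12% and 10.9%. The median log2 fold change was 0.050 over members and 0.015 over all genes. Groups did not overlap in 12 of 64 members, beside 2602 of 13692 genes (19%). The count was 3 without MSCs 1, 2 without rTMS-MSCs 2 and 0 without MSCs 3, where edgeR left 12 members at an unadjusted p under 0.05. Calls over all genes fell as well in these refits, to 1313, 1668 and 1006 in place of 2475. In rTMS-MSCs against OGDR, 20 members passed, 15 lower and 5 higher, so 31.2% beside 32.4%. Lower calls made up 23.4% of members beside 16.2% of all genes, and higher calls 7.81% beside 16.2%. The medians were -0.044 and 0.0080, and groups did not overlap in 26 of 64 members, beside 4149 of 13692 genes (30.3%). Without OGDR 3 or OGDR 4 in turn, 13 members passed, of which 2 and 3 were higher. Of all genes 3461 and 3564 passed in these refits, in place of 4439. The last comparison shares its libraries with the other two, so the 3 sets of values are not independent.

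The summed share of gene counts that fell on members was 1.66% ± 0.0301 (SD, n = 4) in OGDR, 1.51% ± 0.0486 in MSCs and 1.53% ± 0.0301 in rTMS-MSCs. The libraries ran from 1.62% to 1.69%, from 1.47% to 1.58% and from 1.49% to 1.56%, so that every OGDR library lay above every library with stem cells. Abundant members weigh most in this sum, such as Hspa8 (means of 2785, 2353 and 2448 CPM) and Hsp90ab1 (2644, 2362 and 2627 CPM). By compartment, MSCs against OGDR called 12 of 39 cytosolic members (30.8%), 2 of 8 mitochondrial (25.0%) and none of 13 in the endoplasmic reticulum, beside 20.2% of all genes. The counts were 5 (12.8%), 1 (12.5%) and 0 in rTMS-MSCs against MSCs, beside 18.1%, and 16 (41.0%), 2 (25.0%) and 1 (7.69%) in rTMS-MSCs against OGDR, beside 32.4%. Single libraries moved several of these counts. For MSCs against OGDR the cytosolic count was 8 without OGDR 1. It was 9 without OGDR 2, OGDR 4, MSCs 2 or MSCs 3, 10 without OGDR 3 or MSCs 1, and 14 without rTMS-MSCs 3. Of all genes 2410 passed without OGDR 1 and 3451 without rTMS-MSCs 3, in place of 2763. The mitochondrial count in MSCs against OGDR was 3 without MSCs 4 or rTMS-MSCs 3. For rTMS-MSCs against OGDR the cytosolic count was 10 without OGDR 4. The mitochondrial count was 1 without any 1 of the OGDR libraries, MSCs 1, rTMS-MSCs 2, rTMS-MSCs 3 or rTMS-MSCs 4, and that of the endoplasmic reticulum was 2 without OGDR 1 or rTMS-MSCs 4. For rTMS-MSCs against MSCs the cytosolic count was 2 without MSCs 1, 0 without MSCs 3, 1 without rTMS-MSCs 2 and 3 without rTMS-MSCs 1 or rTMS-MSCs 3. There the mitochondrial count was 0 without MSCs 3 and 2 without MSCs 4, and that of the endoplasmic reticulum was 1 without rTMS-MSCs 4. For the endoplasmic reticulum, 1 member had an unadjusted p under 0.05 in MSCs against OGDR and 3 in rTMS-MSCs against MSCs. DESeq2 and limma also called no member there in either comparison. The difference between compartments was not tested.

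**Figure D1:**
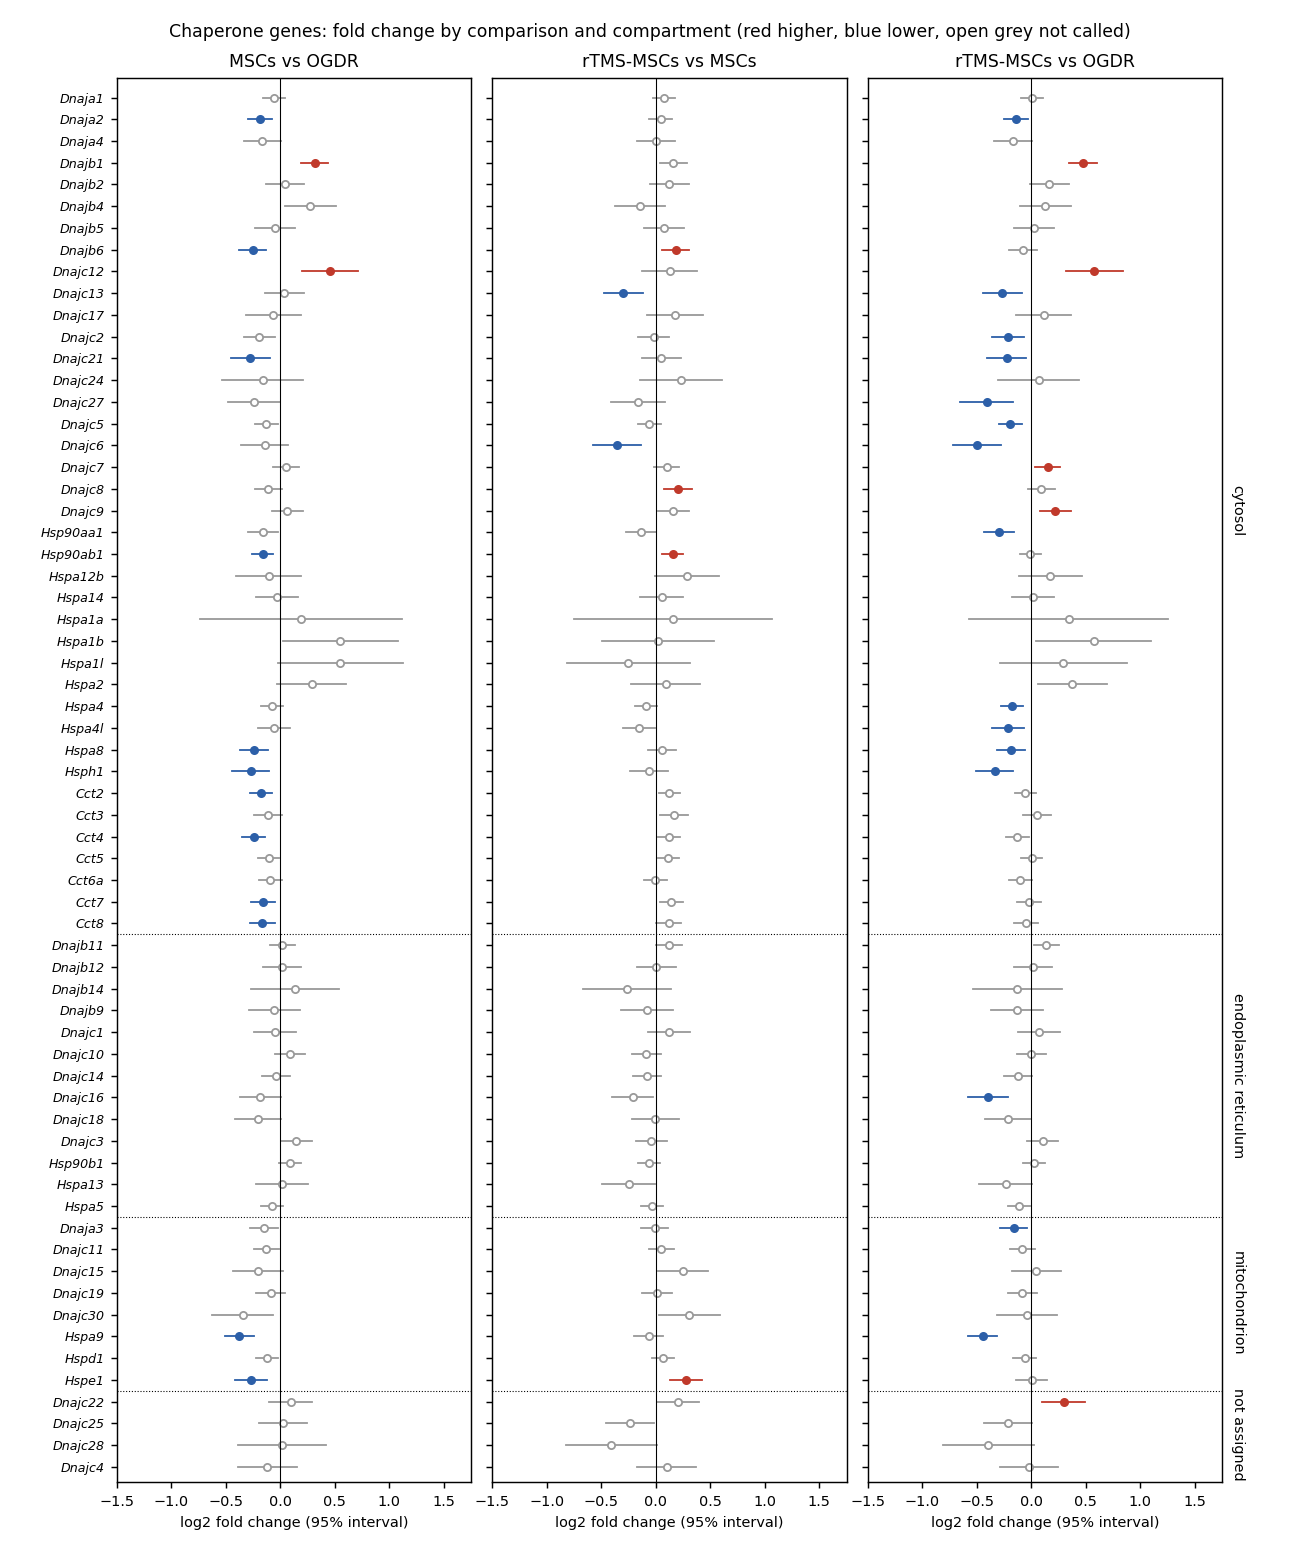
Log2 fold change (x axis) with its 95% interval for each of the 64 tested members (rows, grouped by compartment) in the 3 comparisons (panels). Filled red points passed the threshold as higher, filled blue points as lower, and open grey points did not pass. In MSCs against OGDR, 12 points are blue and 2 are red, none of them among the 13 members of the endoplasmic reticulum.

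Hspa8, the constitutive Hsp70 of the cytosol, was lower with stem cells. It stood at 2978, 2923, 2727 and 2513 CPM in the 4 OGDR libraries, at 2621, 2435, 2146 and 2210.5 CPM in MSCs and at 2436, 2459, 2522 and 2376 CPM in rTMS-MSCs. The lowest OGDR library lay below the highest library of each other group, so the groups overlapped. Hspa8 fell by 0.24 ± 0.061 on the log2 scale (± is the standard error for every log2 fold change here) in MSCs against OGDR, which is 15.5% (adjusted p = 0.00658). Against OGDR it fell in rTMS-MSCs by 0.19 ± 0.061 (adjusted p = 0.0246), and rTMS-MSCs against MSCs gave 0.057 ± 0.061 (adjusted p = 0.542). The call in rTMS-MSCs against OGDR was lost without OGDR 1, OGDR 2, rTMS-MSCs 2 or rTMS-MSCs 4 in turn (adjusted p 0.0519 to 0.0887). 

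Hsph1, the heat-inducible Hsp110, stood at 291, 279, 265 and 228 CPM in OGDR, at 252, 222, 211 and 195 CPM in MSCs and at 236, 210.1, 192 and 203 CPM in rTMS-MSCs. One OGDR library, at 228 CPM, lay inside the range of the other groups. Hsph1 fell by 0.27 ± 0.081 in MSCs (adjusted p = 0.0206) and by 0.34 ± 0.081 in rTMS-MSCs (adjusted p = 0.00352), both against OGDR. The call in MSCs was lost without OGDR 1, OGDR 2, MSCs 3 or MSCs 4 in turn (adjusted p 0.0563 to 0.0807). The other Hsp110 genes, Hspa4 and its homologue Hspa4l, passed in rTMS-MSCs against OGDR, where Hspa4 had 305, 294, 279 and 309.9 CPM beside 340.1, 325, 332 and 342 CPM. Hspa4 fell by 0.17 ± 0.049 (adjusted p = 0.00986) and Hspa4l by 0.22 ± 0.071 (adjusted p = 0.023), with no overlap of libraries in either. In MSCs against OGDR they gave -0.08 (adjusted p = 0.276) and -0.062 (adjusted p = 0.598). The Hspa4l call was lost without OGDR 3, OGDR 4 or rTMS-MSCs 3 in turn (adjusted p 0.0561 to 0.072).

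The promoters of Hspa8 and Hsph1 are shown because both genes were lower with stem cells and both hold a heat shock element, the site of heat shock factors. A heat shock element of 3 units was searched on both strands as GAANNTTCNNGAA and TTCNNGAANNTTC, where N is any base. The sequences are from RefSeq on build GRCr8, from 5′ to 3′ along the gene, ending at the base before the gene start, and capitals mark matches of 3 units. Hspa8 is at chr8:50080294-50080513, plus strand, and Hsph1 at chr12:10427248-10427367, plus strand.
Hspa8: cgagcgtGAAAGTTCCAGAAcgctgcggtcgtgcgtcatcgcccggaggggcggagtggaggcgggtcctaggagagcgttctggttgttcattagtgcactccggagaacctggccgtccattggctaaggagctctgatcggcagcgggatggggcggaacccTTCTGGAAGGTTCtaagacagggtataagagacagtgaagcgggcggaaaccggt
Hsph1: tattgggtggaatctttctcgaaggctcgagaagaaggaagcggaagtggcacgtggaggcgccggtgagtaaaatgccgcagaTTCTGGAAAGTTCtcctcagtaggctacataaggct
Hspa8 holds 2 such matches, which begin at positions -213 and -55 from its start, and Hsph1 holds 1, which begins at -36. A match describes the letters and not the binding of a factor.

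The stress-inducible Hsp70 genes stayed at low levels in each group. Hspa1a had 0.289 to 1.38 CPM in OGDR, 0.513 to 1.19 CPM in MSCs and 0.53 to 1.404 CPM in rTMS-MSCs, with full overlap. Hspa1b had 1.61, 1.73, 1.45 and 1.71 CPM in OGDR, 1.86, 2.98, 2.76 and 1.91 CPM in MSCs and 2.99, 2.05, 2.81 and 1.81 CPM in rTMS-MSCs. Every library with stem cells lay above every OGDR library for Hspa1b, but neither contrast with OGDR passed. They gave 0.55 ± 0.25 (95% interval 0.021 to 1.08, adjusted p = 0.139) and 0.57 ± 0.25 (95% interval 0.044 to 1.10, adjusted p = 0.0911). Hspa1a and Hspa1b are near-identical copies, and the sources used here do not say how reads aligned to both were counted, so their levels and the split between them are uncertain. Hspa1l and Hspa2, known from the testis, gave 0.55 and 0.29 in MSCs against OGDR (adjusted p = 0.174 and 0.204). Hspa14, of the ribosome-associated chaperone complex, gave -0.033 and the distant Hsp70 homologue Hspa12b -0.11 (adjusted p = 0.851 and 0.659). Between rTMS-MSCs and MSCs none of the 13 tested Hsp70 and Hsp110 genes of all compartments passed, beside 18.1% of all genes. There 2 had an unadjusted p under 0.05, and DESeq2 and limma called none either.

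**Figure D2:**
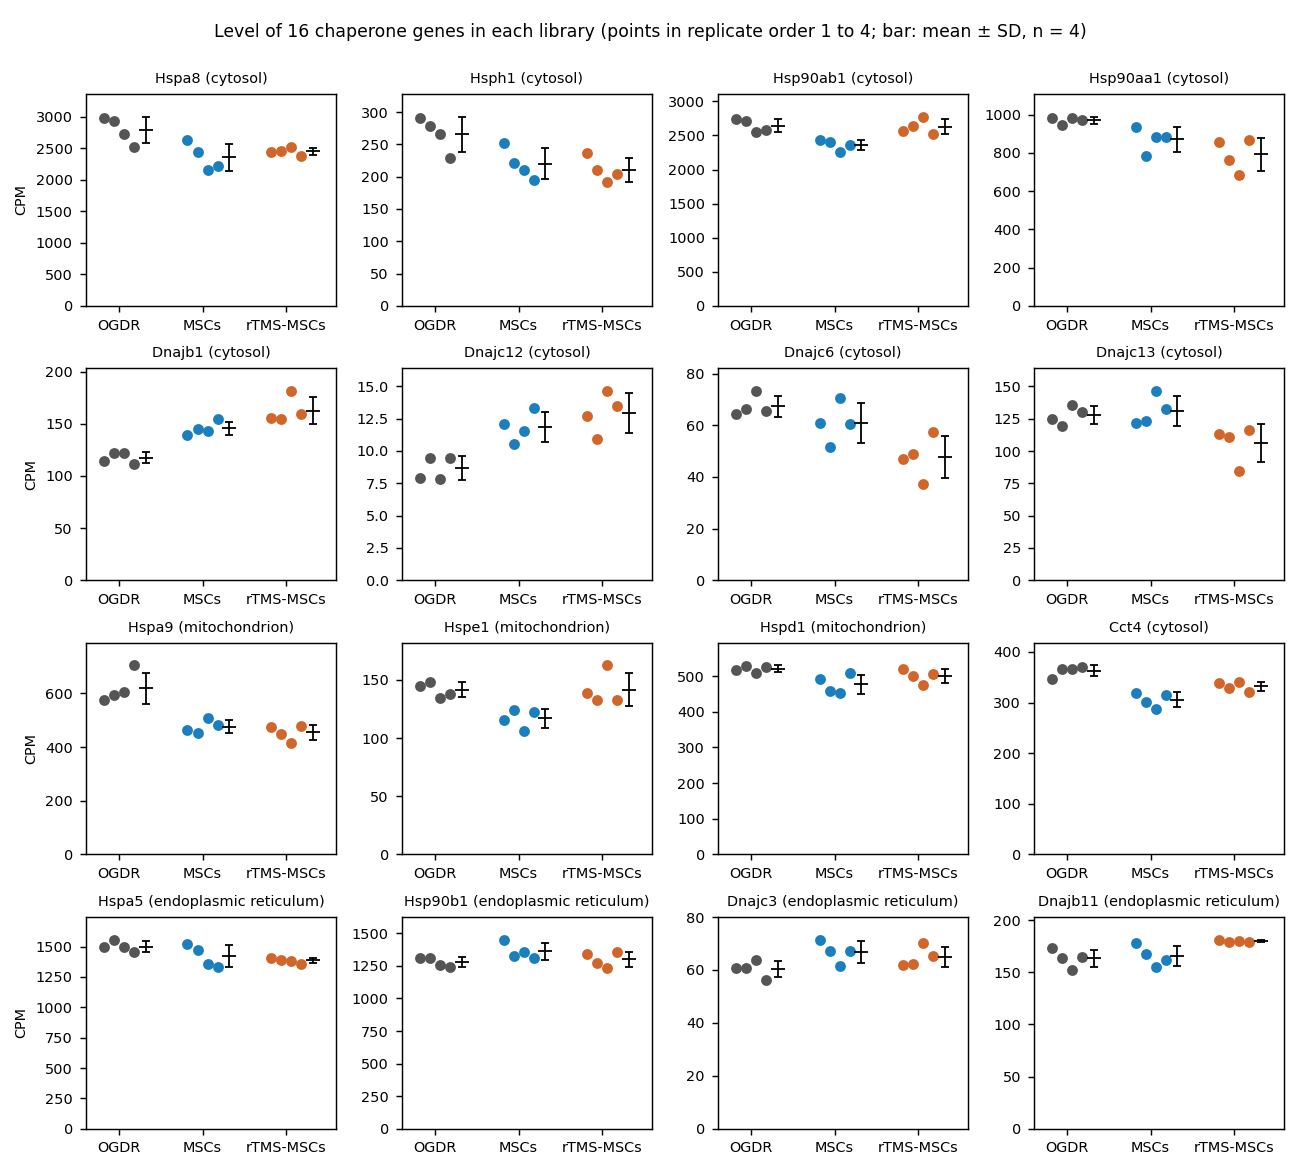
Level in CPM (y axis, from 0) of 16 members in each of the 12 libraries, with 4 points per group in replicate order and a bar for the mean ± SD (n = 4). In Hspa9 and Cct4 every OGDR point lies above every MSCs point, in Dnajb1 and Dnajc12 below, and in Hspa8 the groups overlap.

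Of the 2 cytosolic Hsp90 genes, Hsp90ab1 had its lowest mean in MSCs and Hsp90aa1 in rTMS-MSCs. Hsp90ab1, the constitutive form, stood at 2748, 2705, 2548 and 2574 CPM in OGDR, 2427, 2405, 2255 and 2359 CPM in MSCs and 2566, 2641, 2775 and 2526 CPM in rTMS-MSCs. All 4 MSCs libraries lay below all others. Hsp90ab1 fell by 0.16 ± 0.045 in MSCs against OGDR (adjusted p = 0.0136) and rose by 0.15 ± 0.045 in rTMS-MSCs against MSCs (adjusted p = 0.0253). Against OGDR, rTMS-MSCs gave -0.0092 (95% interval -0.10 to 0.086). The first call was lost without OGDR 1 (adjusted p = 0.0547), and the second without MSCs 3, rTMS-MSCs 2 or rTMS-MSCs 3 in turn (adjusted p 0.0534 to 0.0882).

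Hsp90aa1, the more stress-responsive form, stood at 984, 945, 984 and 972 CPM in OGDR, 935, 783, 881 and 884 CPM in MSCs and 855, 763, 685 and 866 CPM in rTMS-MSCs. The OGDR libraries lay above all 8 others, with rTMS-MSCs 3 the lowest of the 12. Hsp90aa1 fell by 0.29 ± 0.066 in rTMS-MSCs against OGDR (adjusted p = 0.00202). In MSCs against OGDR it gave -0.16 ± 0.066 (adjusted p = 0.101), which passed without rTMS-MSCs 3 (adjusted p = 0.0215). The step from MSCs to rTMS-MSCs gave -0.14 ± 0.066 (95% interval -0.27 to 0.0017, adjusted p = 0.152).

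The chaperonin CCT folds actin and tubulin, and its subunits form 1 ring-shaped complex. All 7 tested subunits (Cct2 to Cct5, Cct6a, Cct7 and Cct8) had a negative log2 fold change in MSCs against OGDR, also under the other scalings tried. Of them 4 passed (57.1% beside 20.2% of all genes). Cct4 stood at 347, 366, 367 and 371 CPM in OGDR, 319, 302, 286 and 315 CPM in MSCs and 338, 328, 341 and 322 CPM in rTMS-MSCs. The 3 groups did not overlap, with MSCs lowest and OGDR highest. Cct4 fell by 0.25 ± 0.049 in MSCs against OGDR (adjusted p = 0.000974). Cct2 fell by 0.18 ± 0.047, with 337 to 373 CPM beside 396 to 407 CPM (adjusted p = 0.00898). Cct7 fell by 0.16 ± 0.052 and Cct8 by 0.17 ± 0.054 (adjusted p = 0.0311 and 0.0329). The libraries of both groups did not overlap in any of these 4.

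The other 3 subunits did not pass in that comparison. Cct3 gave -0.12, Cct5 -0.11 and Cct6a -0.095 (adjusted p = 0.195, 0.117 and 0.206). Scaled to each subunit's OGDR mean and averaged over the 7, the level was 90.0% ± 2.80 (SD, n = 4) in MSCs, with libraries from 86.6% to 93.2%, and 97.2% ± 2.26 in rTMS-MSCs, from 94.6% to 99.9%. The OGDR libraries ran from 98.8% to 101.1%. The OGDR and rTMS-MSCs libraries thus overlapped and the MSCs libraries lay below both. Calls on Cct7 were lost without OGDR 1, OGDR 2, OGDR 4, MSCs 1, MSCs 2 or MSCs 3 in turn (adjusted p 0.0647 to 0.0947), and on Cct8 without OGDR 1, OGDR 3, OGDR 4, MSCs 1 or MSCs 2 in turn (adjusted p 0.0592 to 0.126).

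In rTMS-MSCs against MSCs, 6 of the 7 subunits had a positive log2 fold change with an unadjusted p under 0.05. None passed after adjustment, beside 18.1% of all genes, and the share of all genes at that unadjusted p was not computed. Cct3 gave 0.17 ± 0.062, Cct7 0.14 ± 0.052 and Cct2 0.12 ± 0.047 (adjusted p = 0.0614, 0.0622 and 0.0725), while Cct6a gave -0.0077. DESeq2 called 5 of the 7 there, upper quartile scaling 3 and limma none. Of all genes DESeq2 called 3062 of 12317 there, upper quartile scaling 2595 of 13692 and limma 2723 of 13692. Single libraries mattered: Cct2 passed without MSCs 4 (adjusted p = 0.0478), Cct3 without MSCs 2 or rTMS-MSCs 4 in turn (adjusted p 0.0331 to 0.0481) and Cct7 without MSCs 4 or rTMS-MSCs 4 in turn (adjusted p 0.0404 to 0.0436). In rTMS-MSCs against OGDR none of the 7 passed, beside 32.4% of all genes, with 1 at an unadjusted p under 0.05, while DESeq2 and limma each called Cct4. There Cct4 gave -0.13 ± 0.049 (adjusted p = 0.0548) and passed without OGDR 1, MSCs 3 or rTMS-MSCs 3 in turn (adjusted p 0.039 to 0.0497), and Cct6a gave -0.10 ± 0.051 and passed without rTMS-MSCs 4 (adjusted p = 0.023).

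The first chaperonin subunit, Tcp1, has a name that the rule does not catch. It had means of 238, 218 and 230.3 CPM in OGDR, MSCs and rTMS-MSCs, and gave -0.13 ± 0.051 in MSCs against OGDR (adjusted p = 0.0869). Cct4 is shown because it was the subunit with the largest fall in MSCs and the one with a heat shock element of 3 units, in capitals, which begins 26 bases after the gene start (chr14:101193074-101193103, plus strand, GRCr8, RefSeq).
Cct4: gcgtcgctTTCTGGAAGGTTCgtggaggcg

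**Figure D3:**
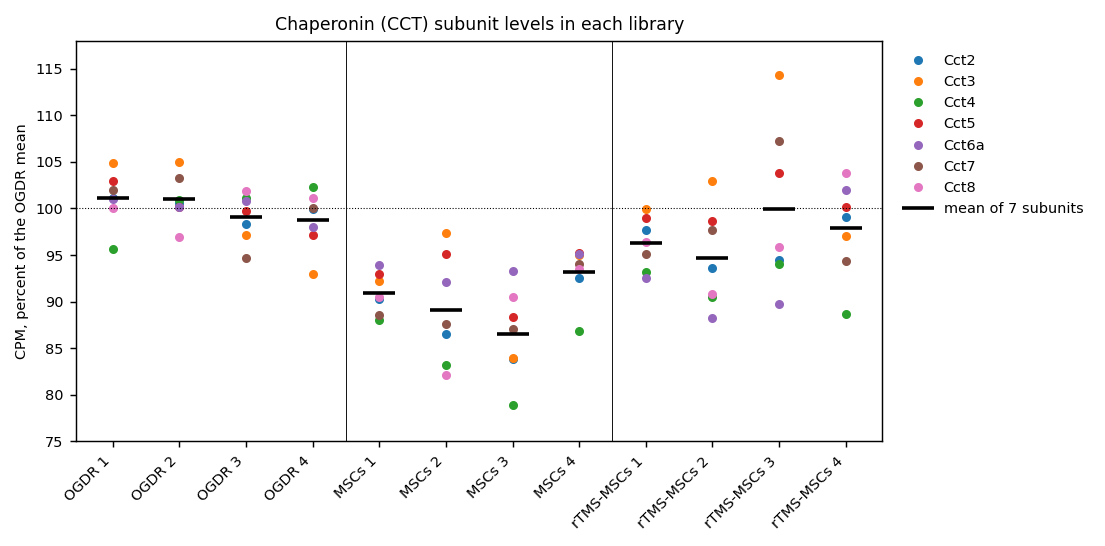
Level of 7 CCT subunits in each of the 12 libraries (x axis), as a percent of that subunit's OGDR mean (y axis, which does not start at 0), with a black bar for the mean of the subunits. The bars of the 4 MSCs libraries lie between 86.6% and 93.2%, those of the 4 rTMS-MSCs libraries between 94.6% and 99.9%.

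J-domain proteins of the cytosol moved in both directions. For MSCs against OGDR, 5 of 20 tested passed (25.0% beside 20.2% of all genes), 2 higher and 3 lower. Between rTMS-MSCs and MSCs it was 4 (20.0% beside 18.1%), 2 in each direction, and in rTMS-MSCs against OGDR 11 of 20, beside 32.4%, 4 higher and 7 lower. Dnajb1, the J-protein partner of stress-inducible Hsp70, stood at 114, 122, 122 and 111 CPM in OGDR, 139.5, 145, 143 and 155 CPM in MSCs and 155, 155, 182 and 159.6 CPM in rTMS-MSCs. The 3 groups did not overlap, MSCs and rTMS-MSCs by less than 1 CPM, and OGDR was the lowest. Dnajb1 rose by 0.31 ± 0.061 in MSCs (adjusted p = 0.000804) and by 0.47 ± 0.061 in rTMS-MSCs (adjusted p = 5.98e-06) against OGDR. The step from MSCs to rTMS-MSCs was 0.16 ± 0.061 (adjusted p = 0.0707).

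Dnajc12, known as a co-chaperone of the aromatic amino acid hydroxylases, stood at 7.89, 9.46, 7.81 and 9.45 CPM in OGDR, 12.1, 10.5, 11.5 and 13.3 CPM in MSCs and 12.7, 10.95, 14.6 and 13.4 CPM in rTMS-MSCs. All OGDR libraries lay below the other 8. It rose by 0.45 ± 0.12 in MSCs, or 37.0% (adjusted p = 0.012), and by 0.58 ± 0.12 in rTMS-MSCs, or 49.4% (adjusted p = 0.00131). These were the largest higher fold changes among called members, against OGDR, in both groups. Th, the gene of the hydroxylase tyrosine hydroxylase, was under 1 CPM in each group mean, as given above.

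Dnajb1 is shown because it went the opposite way to most called members. Its window has no match of 3 units and 2 matches of 2 units (GAANNTTC or TTCNNGAA, both of which also lie within every match of 3), of which the one in capitals begins at position -11 from the gene start and the other at 18, outside the printed stretch (chr19:41431142-41431261, minus strand, GRCr8, RefSeq, read along the gene).
Dnajb1: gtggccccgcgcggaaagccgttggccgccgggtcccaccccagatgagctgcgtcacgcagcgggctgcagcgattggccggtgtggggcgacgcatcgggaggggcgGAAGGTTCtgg

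The J-proteins that were lower with stem cells included Dnaja2, Dnajb6 and Dnajc21. Dnaja2, a main partner of Hspa8 in refolding, had 211 to 232 CPM in OGDR and 183 to 205 CPM in MSCs, and fell by 0.19 ± 0.052 (adjusted p = 0.0134). In rTMS-MSCs, at 195 to 203 CPM, it fell by 0.14 ± 0.052 against OGDR (adjusted p = 0.0407). Dnajb6, which holds back aggregation of polyglutamine proteins, stood at 92.8, 96.7, 92.2 and 92.8 CPM in OGDR, 72.5, 78.8, 79.0 and 83.3 CPM in MSCs and 87.9, 90.8, 82.9 and 93.9 CPM in rTMS-MSCs. The MSCs libraries lay below all OGDR libraries, and 1 rTMS-MSCs library lay among the MSCs values. Dnajb6 fell by 0.26 ± 0.06 in MSCs against OGDR (adjusted p = 0.00407) and rose by 0.18 ± 0.06 in rTMS-MSCs against MSCs (adjusted p = 0.0434). Dnajc21, of ribosome maturation, fell by 0.28 ± 0.086 in MSCs and by 0.23 ± 0.085 in rTMS-MSCs against OGDR (adjusted p = 0.0257 and 0.0482).

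These calls leaned on single libraries in several cases. Dnaja2 in MSCs was lost without OGDR 4 or MSCs 2 in turn (adjusted p 0.0536 to 0.0546), and in rTMS-MSCs against OGDR without OGDR 2, OGDR 4, MSCs 1, rTMS-MSCs 1, rTMS-MSCs 2 or rTMS-MSCs 3 in turn (adjusted p 0.0535 to 0.119). Dnajb6 in rTMS-MSCs against MSCs was lost without any 1 library other than MSCs 4 or rTMS-MSCs 3 (adjusted p 0.0524 to 0.146). Dnajc21 in MSCs was lost without OGDR 2, OGDR 3, MSCs 1, MSCs 2 or MSCs 3 in turn (adjusted p 0.0604 to 0.0767), and in rTMS-MSCs against OGDR without any 1 library other than OGDR 4 or MSCs 4 (adjusted p 0.0532 to 0.116). Dnajb1 and Dnajc12 against OGDR, and Dnajb6 in MSCs against OGDR, passed with each of the 12 libraries left out in turn.

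Dnajc6, Dnajc13, Dnajc5 and Dnajc27, which act at vesicles and endosomes or carry a Rab-like domain, were lower in rTMS-MSCs than in OGDR. Dnajc6, the clathrin-uncoating factor auxilin, stood at 64.6, 66.3, 73.3 and 65.4 CPM in OGDR, 60.9, 51.7, 70.8 and 60.4 CPM in MSCs and 47.01, 48.9, 37.4 and 57.4 CPM in rTMS-MSCs. The OGDR and rTMS-MSCs libraries did not overlap, the MSCs libraries overlapped both, and rTMS-MSCs 3 was the lowest of all. Dnajc6 fell by 0.50 ± 0.11 in rTMS-MSCs against OGDR (adjusted p = 0.00122) and by 0.35 ± 0.11 against MSCs (adjusted p = 0.0272). Dnajc13, a J-protein of endosomal sorting, stood at 125, 119.6, 136 and 130.3 CPM in OGDR, 122, 123, 146 and 132 CPM in MSCs and 113, 111, 84.3 and 117 CPM in rTMS-MSCs. Every rTMS-MSCs library lay below the other 8. Dnajc13 fell by 0.30 ± 0.085 against MSCs and by 0.26 ± 0.085 against OGDR (adjusted p = 0.0208 and 0.0217).

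Dnajc5, the cysteine string protein of synaptic vesicles, fell by 0.19 ± 0.051 in rTMS-MSCs against OGDR, with 114 to 121 CPM beside 132 to 139.7 CPM (adjusted p = 0.00678). It gave -0.13 in MSCs against OGDR (adjusted p = 0.0752). Dnajc27, a Rab-like GTPase with a J domain, fell by 0.41 ± 0.12, with 12.8 to 16.6 CPM beside 18.2 to 22.6 CPM (adjusted p = 0.0108), and gave -0.24 in MSCs (adjusted p = 0.15). The Dnajc6 call against MSCs was lost without MSCs 1, MSCs 3, rTMS-MSCs 1, rTMS-MSCs 2 or rTMS-MSCs 3 in turn (adjusted p 0.051 to 0.125). The Dnajc13 call against MSCs was lost without MSCs 3 (adjusted p = 0.1), and that against OGDR without OGDR 3, OGDR 4 or rTMS-MSCs 3 in turn (adjusted p 0.0528 to 0.0719). With both MSCs 3 and rTMS-MSCs 3 left out, Dnajc6 gave -0.17 (adjusted p = 0.259) and Dnajc13 -0.15 (adjusted p = 0.184) in rTMS-MSCs against MSCs.

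The remaining called J-proteins of the cytosol act in the nucleus, on the ribosome or beside Hsp90. Dnajc8, associated with the splicing machinery, rose by 0.20 ± 0.061 in rTMS-MSCs against MSCs, with 90.2 to 97.5 CPM beside 77.5 to 89.8 CPM (adjusted p = 0.0275). Dnajc9, a histone chaperone, rose by 0.22 ± 0.069 in rTMS-MSCs against OGDR, with 95.6 to 113 CPM beside 82.6 to 95.03 CPM (adjusted p = 0.0184). Dnajc7, which binds Hsp70 and Hsp90, rose by 0.15 ± 0.055, with 113 to 117 CPM beside 97.5 to 106 CPM (adjusted p = 0.0416). Dnajc2, of the ribosome-associated complex, fell by 0.22 ± 0.069, with 58.3 to 64.7 CPM beside 70.6 to 74.2 CPM (adjusted p = 0.0221), and gave -0.19 in MSCs (adjusted p = 0.0544).

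Libraries of the compared groups did not overlap for any of these 4. The Dnajc8 call was lost without MSCs 1, MSCs 2, MSCs 3 or rTMS-MSCs 2 in turn (adjusted p 0.0632 to 0.0998). The Dnajc9 call was lost without OGDR 3, OGDR 4 or rTMS-MSCs 3 in turn (adjusted p 0.0508 to 0.0708), the Dnajc2 call without OGDR 4 or rTMS-MSCs 2 in turn (adjusted p 0.0561 to 0.0766), and the Dnajc7 call without any 1 library other than MSCs 2, MSCs 3, MSCs 4 or rTMS-MSCs 3 (adjusted p 0.0533 to 0.132). Dnaja1, the stress-responsive type I J-protein, passed in no comparison: it stood at 292, 279.8 and 294 CPM in the group means and gave -0.063 ± 0.048 in MSCs against OGDR (95% interval -0.16 to 0.038). Its window holds a heat shock element of 3 units, in capitals, which begins 10 bases after the gene start (chr5:60638405-60638434, plus strand, GRCr8, RefSeq).
Dnaja1: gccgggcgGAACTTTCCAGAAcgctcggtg
The tested members Dnaja4, Dnajb2, Dnajb4, Dnajb5, Dnajc17 and Dnajc24 passed in no comparison either. Dnajb4 was the farthest from 0 of them in MSCs against OGDR, with 0.27 ± 0.11 (adjusted p = 0.0881).

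In the mitochondrion, Hspa9 and Hspe1 were lower in MSCs than in OGDR. Hspa9 is mortalin, the Hsp70 of the import motor, and stood at 574, 594, 604 and 705 CPM in OGDR, 463, 451, 509 and 482 CPM in MSCs and 476, 450.3, 417 and 478 CPM in rTMS-MSCs. All OGDR libraries lay above the other 8, which overlapped. Hspa9 fell by 0.38 ± 0.064 in MSCs, or 23.1% (adjusted p = 0.000176), and by 0.44 ± 0.064 in rTMS-MSCs, or 26.5% (adjusted p = 2.36e-05). The MSCs to rTMS-MSCs difference was -0.065 ± 0.064 (95% interval -0.20 to 0.068). Both calls against OGDR passed with each library left out in turn.

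Hspe1, the Hsp10 lid of the mitochondrial chaperonin, stood at 145, 148, 134 and 138 CPM in OGDR, 115, 124, 106 and 123 CPM in MSCs and 139, 132, 163 and 133 CPM in rTMS-MSCs. The MSCs libraries lay below all others, and rTMS-MSCs 3 was the highest of the 12. Hspe1 fell by 0.27 ± 0.069 in MSCs against OGDR (adjusted p = 0.00733) and rose by 0.28 ± 0.07 in rTMS-MSCs against MSCs (adjusted p = 0.0112). Against OGDR, rTMS-MSCs gave 0.004 (95% interval -0.14 to 0.15). The rise over MSCs was lost without MSCs 3 (adjusted p = 0.0513), and without both MSCs 3 and rTMS-MSCs 3 it was 0.16 (adjusted p = 0.123).

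Hspd1, the Hsp60 barrel that Hspe1 closes, had 518, 529.8, 509 and 527 CPM in OGDR and 491, 459, 452 and 508 CPM in MSCs. The 2 groups did not overlap, by less than 1 CPM, and the difference was -0.13 ± 0.05 (adjusted p = 0.0831). It passed without MSCs 4 or rTMS-MSCs 3 in turn (adjusted p 0.0387 to 0.0395). In rTMS-MSCs it stood at 519.7, 500.5, 474 and 505 CPM, with 0.065 against MSCs and -0.06 against OGDR (adjusted p = 0.374 and 0.383). Hspd1 and Hspe1 are read in opposite directions from a shared start region, and the windows of both hold the same heat shock element. It is printed along Hspe1 (chr9:64084255-64084284, plus strand, GRCr8, RefSeq), with 2 overlapping matches of 3 units in capitals, which begin at positions -65 and -60 from the Hspe1 start.
Hspe1: cgctcggTTCTAGAACCTTCCGGAAggccc

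The other mitochondrial members are J-proteins. Dnaja3, a partner of mortalin, fell by 0.16 ± 0.06 in rTMS-MSCs against OGDR, with 70.3 to 78.8 CPM beside 81.2 to 83.4 CPM (adjusted p = 0.0446), and gave -0.15 in MSCs (adjusted p = 0.0823), with no overlap with OGDR in either. The call was lost without any 1 library other than MSCs 2, MSCs 3, MSCs 4 or rTMS-MSCs 1 (adjusted p 0.054 to 0.125). Dnajc11, of the cristae-organizing complex, gave -0.13 in MSCs against OGDR, and Dnajc15 and Dnajc19 of the import machinery -0.20 and -0.091 (adjusted p = 0.106, 0.208 and 0.364). Dnajc30 gave -0.35 ± 0.13 (adjusted p = 0.0767). All 8 mitochondrial members were thus below 0 in MSCs against OGDR, also under the other scalings tried, with 2 called and 6 at an unadjusted p under 0.05, while upper quartile scaling, DESeq2 and limma called 4 each. Of all genes upper quartile scaling called 2869 of 13692 there, DESeq2 3081 of 13928 and limma 3590 of 13692. In rTMS-MSCs against OGDR 6 of the 8 were below 0, and 7 were under upper quartile scaling and by limma. Trap1, the mitochondrial Hsp90 outside the name rule, gave -0.14 ± 0.059 in MSCs against OGDR (adjusted p = 0.103).

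Of the 13 chaperones of the endoplasmic reticulum, 1 passed, Dnajc16 in rTMS-MSCs against OGDR, where DESeq2 called 2 and limma 3. Of all genes DESeq2 called 4672 of 13928 there and limma 4607 of 13692. Hspa5, the Hsp70 known as BiP, stood at 1494, 1557, 1494 and 1453 CPM in OGDR, 1524, 1470.2, 1357 and 1334 CPM in MSCs and 1408, 1393, 1380.2 and 1361 CPM in rTMS-MSCs. MSCs overlapped both other groups, and the rTMS-MSCs libraries lay below the OGDR libraries. Hspa5 gave -0.077 ± 0.048 in MSCs (95% interval -0.18 to 0.023) and -0.11 ± 0.048 in rTMS-MSCs (95% interval -0.21 to -0.014, adjusted p = 0.0749) against OGDR. In rTMS-MSCs against OGDR limma called Hspa5 lower (-0.11, adjusted p = 0.0418). Hsp90b1, known as Grp94, stood at 1309, 1312, 1255 and 1244 CPM in OGDR, 1452, 1326, 1354 and 1312 CPM in MSCs and 1345, 1270.2, 1234 and 1357 CPM in rTMS-MSCs. It gave 0.089 ± 0.048 in MSCs (95% interval -0.011 to 0.19, adjusted p = 0.212) and 0.024 ± 0.048 in rTMS-MSCs (95% interval -0.076 to 0.12). The lowest MSCs library lay above the highest OGDR library for Hsp90b1 by less than 1 CPM.

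Among the J-proteins of that compartment, Dnajc16 fell by 0.40 ± 0.089 in rTMS-MSCs against OGDR (adjusted p = 0.00201). It stood at 29.8, 29.2, 29.8 and 26.3 CPM in OGDR, 26.8, 26.2, 22.6 and 25.8 CPM in MSCs and 19.8, 23.5, 20.6 and 23.5 CPM in rTMS-MSCs, and the call passed with each library left out in turn. Every OGDR library lay above every rTMS-MSCs library, and MSCs overlapped both. Dnajc3, an inhibitor of the kinase PERK and a BiP partner, stood at 60.9, 60.9, 63.6 and 56.2 CPM in OGDR and 71.5, 67.1, 61.5 and 67.3 CPM in MSCs, with 0.15 ± 0.068 (adjusted p = 0.142). Without both MSCs 3 and rTMS-MSCs 3 it passed, at 0.19 (adjusted p = 0.0455). Dnajb11, the soluble BiP partner ERdj3, had 181, 179, 180.1 and 179 CPM in rTMS-MSCs, above all 152 to 173 CPM of OGDR and all 155 to 178 CPM of MSCs. It gave 0.14 ± 0.055 against OGDR (adjusted p = 0.0616) and passed without OGDR 1 (adjusted p = 0.0397). DESeq2 and limma also called it.

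Dnajb9, a partner of the sensor IRE1, gave -0.055 in MSCs and -0.13 in rTMS-MSCs against OGDR (adjusted p = 0.79 and 0.397). The reductase Dnajc10 gave 0.089 and 0.00013, with a 95% interval of -0.13 to 0.13 in the second. Dnajb12 and Dnajb14, membrane partners of Hspa8 in degradation from the reticulum, gave 0.013 and 0.14 in MSCs against OGDR. Hspa13, a microsomal Hsp70, gave -0.25 ± 0.12 in rTMS-MSCs against MSCs (adjusted p = 0.133). Dnajc1, Dnajc14 and Dnajc18 passed in no comparison. The 13 log2 fold changes of the compartment ran from -0.21 to 0.15 in MSCs against OGDR.

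The windows of Hspa5, Hsp90b1 and Dnajc3 are shown because each holds the ERSE, the element through which the unfolded protein response acts. They are also shown because none of the 3 genes passed in any comparison of the main edgeR fit. The ERSE was searched on both strands as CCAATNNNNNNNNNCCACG, and capitals mark a match. All are from RefSeq, GRCr8, read along the gene: Hspa5 at chr3:38452896-38453015, plus strand, Hsp90b1 at chr7:23012294-23012438, minus strand, and Dnajc3 at chr15:102432487-102432606, plus strand.
Hspa5: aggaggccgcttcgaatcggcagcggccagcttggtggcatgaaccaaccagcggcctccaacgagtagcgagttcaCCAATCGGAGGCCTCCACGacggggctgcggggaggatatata
Hsp90b1: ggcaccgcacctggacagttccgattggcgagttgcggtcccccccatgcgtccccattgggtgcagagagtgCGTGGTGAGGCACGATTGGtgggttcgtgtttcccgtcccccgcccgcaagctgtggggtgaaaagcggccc
Dnajc3: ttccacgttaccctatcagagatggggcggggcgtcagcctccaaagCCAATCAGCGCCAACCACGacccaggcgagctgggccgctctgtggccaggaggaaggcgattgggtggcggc
The match in Hsp90b1 lies on the strand opposite the gene, and a second one begins at position -176, outside the printed stretch. Dnajb11 holds the related ERSE-II, ATTGGNCCACG, across its start.

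Across the windows, 60 of 73 members could be matched to RefSeq. The heat shock element of 3 units was present in 6 of these 60 (10.0%) and in 0.798% of all 33469 promoter windows: Cct4, Dnaja1, Hspa8, Hspd1, Hspe1 and Hsph1. The 2-unit form was present in 17 members (28.3%) and in 15.9% of all windows, the ERSE in 3 members (5.00%) and in 0.0657% of all windows, and ERSE-II in 1 member (1.67%) and in 0.0508%. For MSCs against OGDR the 6 members with 3 units had a median log2 fold change of -0.25, with all 6 below 0 and 4 called lower, where 8.63% of all genes were called lower and their median was -0.0021. Hspd1 and Hspe1 share 1 of these elements. Of all 64 tested members, with or without an element, 43 were below 0 there, 18.8% were called lower and the median was -0.093. For rTMS-MSCs against MSCs the 6 members had a median of 0.068, with Hspe1 called higher, where 7.14% of all genes were called higher and 10.9% lower. In rTMS-MSCs against OGDR their median was -0.093, with Hspa8 and Hsph1 called lower, where 16.2% of all genes were called lower. Of the 17 members with 2 units, 15 were tested, including the 6 with 3 units. For MSCs against OGDR 13 of these 15 were below 0, 6 were called lower, Hspa9 and Dnajb6 among them, and 1, Dnajb1, was called higher, with a median of -0.21. The 2-unit members gave 2 higher and 0 lower calls in rTMS-MSCs against MSCs (median 0.065), beside 7.14% and 10.9% of all genes. They gave 1 higher and 5 lower in rTMS-MSCs against OGDR (median -0.10), where 16.2% of all genes were called in each direction. The 3 members with the ERSE gave medians of 0.089, -0.044 and 0.024 in the 3 comparisons.

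**Figure D4:**
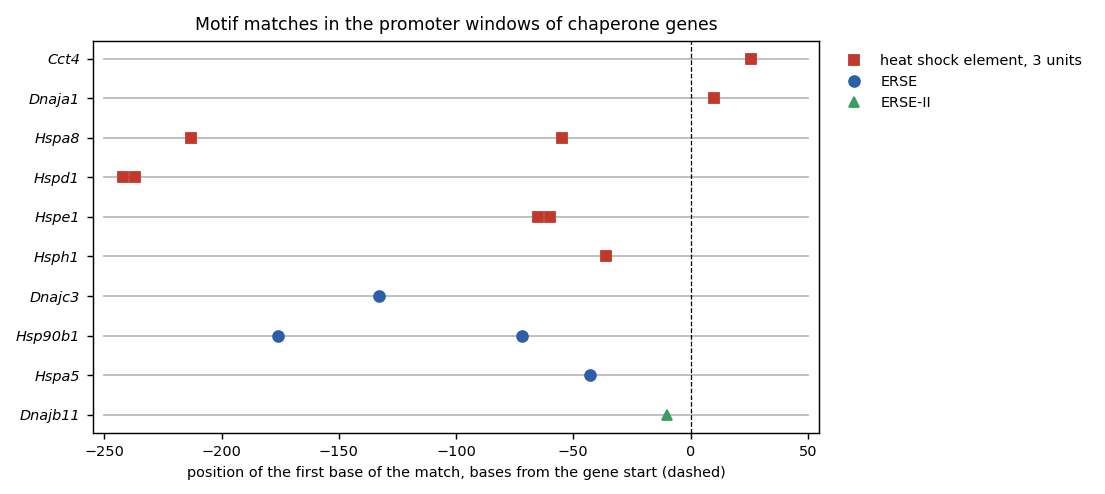
Position of the first base of each motif match relative to the gene start (x axis, in bases, dashed line at the start) in the promoter windows of 10 members (rows). Red squares mark heat shock elements of 3 units, blue circles the ERSE and the green triangle ERSE-II. The squares fall in the 6 upper rows and the circles in Dnajc3, Hsp90b1 and Hspa5.

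Of the 4 members without a compartment, Dnajc22, a membrane J-protein, rose by 0.30 ± 0.094 in rTMS-MSCs against OGDR, with 22.0 to 25.4 CPM beside 17.8 to 21.6 CPM with no overlap (adjusted p = 0.0199). The call was lost without OGDR 1 or OGDR 3 in turn (adjusted p 0.0647 to 0.0657). Dnajc4, Dnajc25 and Dnajc28 did not pass in any comparison. The 9 members left untested for low counts were Cct6b, Cct8l2, Dnajb13, Dnajb3, Dnajb7, Dnajb8, Dnajc5b, Dnajc5g and Hspa12a. Cct6b, a testis form of a chaperonin subunit, had 79 counts over the 12 libraries. Hspa12a had 28, of which 12 lay in 1 OGDR library, and Dnajb13 had 18. Dnajb3, Dnajb7 and Dnajc5b had 7 each, Dnajb8 had 1, and Cct8l2 and Dnajc5g had none.

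Pseudogenes can draw reads from their parent genes, and 7 of the 9 excluded rows passed the filter. Hspa8-ps22 had means of 40.4 CPM in OGDR, 35.9 CPM in MSCs and 30.8 CPM in rTMS-MSCs, with -0.17 (adjusted p = 0.127) in MSCs and a fall of 0.39 in rTMS-MSCs against OGDR (adjusted p = 0.000603). Hspa8-ps23 fell by 0.45 and 0.50 in the same comparisons (adjusted p = 0.0153 and 0.00519). How reads were split between these rows and Hspa8 was not tested.

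Other genes of the folding network, were counted in lists chosen for their function. Among 33 tested cytosolic co-chaperones and small heat shock proteins, 6 rose and 5 fell in MSCs against OGDR, so 33.3% passed beside 20.2% of all genes. Fkbp5, a glucocorticoid-induced Hsp90 co-chaperone, rose from 84.2 to 335 CPM, or 1.99 ± 0.061 (adjusted p = 1.83e-15), and Cryab, a small heat shock protein, from 165 to 506 CPM, or 1.61 ± 0.079 (adjusted p = 3.95e-12). The small heat shock protein Hspb7 rose by 1.54 from under 1 CPM, and the Hsp90 co-chaperone Ppid fell by 0.34 (adjusted p = 0.00299 and 0.00367). Between rTMS-MSCs and MSCs, 5 rose (15.2% beside 18.1%), among them the prefoldin subunits Pfdn5 (0.38) and Pfdn1 (0.32), which pass substrates to CCT, and Cryab (0.28) and the Hsp70 exchange factor Hspbp1 (0.23), with adjusted p from 0.0015 to 0.0424. Against OGDR, 6 rose and 2 fell in rTMS-MSCs (24.2% beside 32.4%).

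Among 29 tested genes of folding and stress signalling in the endoplasmic reticulum, 3 rose and 2 fell in MSCs against OGDR (17.2% beside 20.2% of all genes). The stress transcription factor Ddit3 fell by 0.68 and the oxidase Ero1a by 0.37, while the disulphide isomerases P4hb and Pdia3 rose by 0.13 and 0.13 (adjusted p = 8.25e-06, 8.62e-05, 0.0287 and 0.0367). In rTMS-MSCs against MSCs 3 rose and 4 fell (24.1% beside 18.1%). The stress sensors Eif2ak3 and Atf6 fell by 0.40 and 0.40, the degradation adaptor Sel1l fell by 0.38, and the translocon subunit Sec61b rose by 0.27 (adjusted p = 0.00629, 0.0139, 0.00452 and 0.0145). In rTMS-MSCs against OGDR 7 rose and 5 fell (41.4% beside 32.4%), and Ern1, the gene of the sensor IRE1, fell by 1.15 from 14.7 to 6.62 CPM (adjusted p = 0.000316).

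Among 16 tested mitochondrial folding factors and proteases, 1 rose and 1 fell in MSCs against OGDR (12.5% beside 20.2% of all genes): the protease Htra2 rose by 0.30 and the protease Lonp1 fell by 0.30 (adjusted p = 0.0112 and 0.000274). Between rTMS-MSCs and MSCs 2 rose (12.5% beside 18.1%), Htra2 by 0.27 and Grpel1, the exchange factor of mortalin, by 0.27 (adjusted p = 0.0258 and 0.0243). Against OGDR, 2 rose and 3 fell in rTMS-MSCs (31.2% beside 32.4%). Of 5 tested heat shock factors and their binding partners, 1, 1 and 2 passed in the 3 comparisons (20%, 20% and 40%, beside 20.2%, 18.1% and 32.4% of all genes). Hsf1, the main factor of the heat shock response, had means of 86.4, 80.1 and 89.1 CPM and gave -0.11 in MSCs against OGDR (adjusted p = 0.411). Hsf2bp fell by 0.88 in MSCs against OGDR, Hsbp1, a negative regulator of Hsf1, rose by 0.27 in rTMS-MSCs against MSCs, and Hsf2 fell by 0.30 in rTMS-MSCs against OGDR (adjusted p = 0.000757, 0.00594 and 0.036).

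Markers of other cell types moved between the groups as well. Of 11 tested glial and Schwann markers, 7 rose in MSCs against OGDR, beside 11.6% of all genes, and in rTMS-MSCs against OGDR 7 rose and 1 fell, where 16.2% of all genes were called in each direction. The summed level of the 12 listed ran from 1066 to 1162 CPM in OGDR, 1281 to 1358 CPM in MSCs and 1290 to 1389 CPM in rTMS-MSCs. Of 12 tested stromal and mesenchymal markers, 6 rose and 1 fell in MSCs against OGDR, where 11.6% and 8.63% of all genes did. In rTMS-MSCs against OGDR 5 rose and 1 fell, beside 16.2% of all genes in each direction. The sums of 6742 to 7203, 7191 to 7445 and 7489 to 8181 CPM consist largely of Vim, with means of 5117, 4610.5 and 5013 CPM. Lum had no count, and Dcn, Thy1, Acta2 and Col1a2 had means under 1 CPM in each group. Pdgfra had means of 286, 292 and 241 CPM. Of 11 tested chromaffin markers, 2 rose (Th and Cyb561) and 1 fell (Scg2) in MSCs, and 3 rose (those and Pcsk2) and 1 fell (Scg2) in rTMS-MSCs against OGDR. The median over the 11 was 0.11 in MSCs against OGDR, with 7 above 0. Their sums of 289 to 357, 209 to 255 and 221 to 240.3 CPM consist largely of Scg2, whose means are given above and which fell by 0.53 in MSCs and by 0.50 in rTMS-MSCs against OGDR (adjusted p = 1.03e-05 and 1.72e-05).

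Of 4 tested endothelial markers, 1 rose and 1 fell in MSCs and 1 fell in rTMS-MSCs against OGDR, with sums of 168 to 193, 155 to 167 and 145 to 161 CPM and no count for Kdr. The 9 macrophage markers, with no count for Adgre1, summed to 52.0 to 60.0, 51.7 to 67.0 and 64.6 to 78.1 CPM, and 1 of 2 tested rose in rTMS-MSCs against OGDR. Against OGDR, 11.6% of all genes were called higher and 8.63% lower in MSCs, and 16.2% in each direction in rTMS-MSCs. Between rTMS-MSCs and MSCs, 2 glial markers rose and 1 fell, 1 chromaffin marker rose and 1 stromal marker fell. There 7.14% of all genes were called higher and 10.9% lower. The part of these differences in the chaperone results was not tested.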

How the data were processed

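Messenger RNA of 12 libraries was sequenced. The authors deposited raw counts per gene, and the submitters' processing notes name HISAT2 2.1.0, HTSeq 0.11.2, DESeq2 1.40.1 and the build mRatBN7.2. The sources used here do not say whether counting used strand. The series text speaks of microarrays and of another number of samples, while the labels and the table describe sequencing. The HTSeq line for reads in no gene, 51.7 to 52.7% of all reads counted, was left out of library sizes and tests.

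Counts of all 12 libraries were fitted together in edgeR 4.0.16 (R 4.3.3) with TMM scaling, its filter on low counts (minimum count 10, minimum total 15), group means and the quasi-likelihood test, and p-values were Benjamini-Hochberg adjusted over 13692 genes, threshold 0.05. The same code recovered known changes in simulated counts, but their sizes and the share recovered are not given here. CPM values were computed from the deposited counts with TMM library sizes. Standard errors are the log2 fold change divided by the root of F. DESeq2 1.42.0, limma 3.58.1 voom with quality weights, other scalings and filters, the 2 compared groups alone, a replicate block and each library left out were alternatives. Replicate numbers were not used to pair the libraries in the main fit.

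Named were called members (up to 8 per direction, compartment and comparison), a panel of 25 known chaperones, the context genes of smallest p, and untested members. Dnajc5 and the members outside that panel that did not pass were named after their values were seen. Members and lists were chosen with earlier results of these data known, and compartments were assigned by hand. Promoter sequences come from RefSeq on GRCr8, a build other than that of the counts. Proteins were not analysed here, and 1 item is not reported here.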

Additional observations from a re-analysis of the deposited data

Results flagged for a closer look

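Of 120 groups of 4 libraries, the levels of 40 named members in 3 groups, 4 had 1 library apart from the other three by Dixon's ratio of the gap to the whole range, and chance sets apart about 1 in 20 such groups. The Dnajb6 level in OGDR 2, 96.7 CPM beside 92.2 to 92.8 CPM, had a ratio of 0.856. Dnajc16 in OGDR 4, 26.3 CPM beside 29.2 to 29.8 CPM, had 0.836. Dnajc7 in OGDR 1, 97.5 CPM beside 106 CPM in the nearest other library, had 0.898. Hspa4l in rTMS-MSCs 3, 78.4 CPM beside 91.9 to 93.8 CPM, had 0.873.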

How the results depend on the processing

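No called member changed its sign under any alternative. In MSCs against OGDR 8 of 14 calls, in rTMS-MSCs against MSCs 0 of 6 and in rTMS-MSCs against OGDR 10 of 20 passed in every setting at the 0.05 threshold. Of the panel members that did not pass, 3 of 15, 6 of 23 and 5 of 18 changed sign somewhere. With a threshold of 0.01 the counts of called members fell to 7, 0 and 9. The count for rTMS-MSCs against MSCs was 10 with upper quartile scaling, 12 with DESeq2, 2 with only the 8 libraries compared and 0 without MSCs 3 and rTMS-MSCs 3, a setting chosen after seeing the data, in which edgeR left 8 members at an unadjusted p under 0.05. For all genes those settings called 2595, 3062, 1758 and 677 in place of 2475. The cause of these shifts was not tested. Leaving out each library in turn gave 10 to 17, 0 to 9 and 13 to 20 calls, and other alternatives stayed within 1.5 times of the main counts. Calls over all genes ranged from 2243 to 3451, from 1006 to 3196 and from 3461 to 4683 with each library left out. With the replicate block the counts were 14, 5 and 17, and Cct7 in MSCs against OGDR (adjusted p = 0.0565), Dnajb6 in rTMS-MSCs against MSCs (0.0540), and Dnaja3 (0.0594), Dnajc21 (0.0714) and Dnajc7 (0.0542) in rTMS-MSCs against OGDR no longer passed. Same-numbered libraries had deviations that correlated at 0.0287 to 0.128, -0.205 to 0.0322 and -0.174 to 0.0599. Own number was best in 4, 0 and 0 of 4 pairs, so same-numbered libraries matched best in MSCs against OGDR only. The labels do not say what a shared number stands for, so neither the block nor these matches can show whether libraries were paired. Context genes were not refitted. Members of low level, such as Hspa1a and Hspa1b, were measured with little precision at this depth.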
